A study of Homo sapiens with 6 samples.

Results

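The 40 genes described here encode core proteins of the human spliceosome, and they were chosen by name: each is a row of the deposited gene table whose symbol stands on a list of spliceosome subunits. All 40 symbols occurred once among the 58302 genes of the table, and 39 of the 40 had a mean of at least 0.5 FPKM (fragments scaled to transcript length and library size) over all libraries, the level required for testing. The samples are total RNA of MHCC97H, an established human liver cancer (hepatocellular carcinoma) line, sequenced in 2 groups: a DDX17 knockout made with CRISPR/Cas9 (DDX17_KO, 3 libraries) and a non-target control (control, 3 libraries). DDX17 is a DEAD-box RNA helicase, and the title of the series asks about alternative splicing under its control. No label says whether the knockout line was 1 clone or whether libraries came from separate cultures, and the p-values therefore reflect only how much these libraries scatter, which may be technical. Values of single libraries are given in the order of replicates 1, 2 and 3.

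The spliceosome removes introns from pre-mRNA. It is built anew on each intron from small nuclear ribonucleoprotein particles (snRNPs), each an snRNA with its proteins. U1 binds the 5′ splice site, SF1 and the U2AF proteins mark the branch site and the 3′ splice site, and U2 then takes the branch site with its SF3a and SF3b subcomplexes. U4, U5 and U6 join as a preformed tri-snRNP, and the PRPF19 complex, named for its ubiquitin ligase subunit, stabilises the catalytic form. The table gives 1 level per gene, so it shows how much RNA of each subunit gene was present and not how any intron was spliced. In bulk RNA, fewer cells with a transcript and less of it per cell cannot be told apart.

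Promoters are shown for 4 members, picked by fold change and level. Of the 40 members, 36 had an entry in RefSeq's promoter table (build GRCh38.p14), which spans 250 bases before to 50 bases after the start. SF3B1 and AQR are the members with the highest fold changes. EFTUD2 had the lowest one among members with an entry, and SNRPB is the most abundant member. The first entry of each gene was used, and its start differs from that of the gene span given below. All of the EFTUD2 stretch lies inside its span, and the other stretches overlap theirs in part. The last 150 bases before the entry's start are given 5′ to 3′ on the gene's strand, which is the minus strand in all 4. Capitals mark the letters CCGGAAG or their reverse complement, a core recognised by ETS family factors.
SF3B1 (chr2:197435029-197435178): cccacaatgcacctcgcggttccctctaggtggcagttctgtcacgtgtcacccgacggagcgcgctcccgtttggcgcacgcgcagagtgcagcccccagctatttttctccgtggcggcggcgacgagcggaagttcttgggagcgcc
AQR (chr15:34969743-34969892): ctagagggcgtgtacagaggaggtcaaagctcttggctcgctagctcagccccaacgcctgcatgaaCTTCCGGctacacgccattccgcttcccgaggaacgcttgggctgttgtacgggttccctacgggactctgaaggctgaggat
EFTUD2 (chr17:44899446-44899595): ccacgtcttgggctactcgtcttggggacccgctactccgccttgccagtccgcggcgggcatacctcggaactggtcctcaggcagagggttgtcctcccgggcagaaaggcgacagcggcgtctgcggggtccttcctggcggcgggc
SNRPB (chr20:2470790-2470939): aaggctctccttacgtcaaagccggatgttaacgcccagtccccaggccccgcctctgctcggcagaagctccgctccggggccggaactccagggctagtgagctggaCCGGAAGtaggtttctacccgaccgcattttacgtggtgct

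Over the 250 bases before the start, searched on both strands, CCGGAAG occurred in 20 of the 36 member promoters, against 8.82% of all 27305 promoters in the table. The letters were present in 4 of the 8 members with a fold change above 0 and in 16 of the 27 below 0. GGGCGG, the GC box, occurred in 21 of 36 members and in 42.3% of all promoters; 3 of the 8 members above 0 and 18 of the 27 below 0 held it. CCAAT occurred in 11 of 36 members and in 33% of all promoters, GCATGCGC in 3 of 36 and in 2.81%, and TATAAA in 1 of 36 and in 11.1%. No motif of the 5 contains another. The median GC content of the window was 60.8% in members above 0 and 61.2% in members below 0, against 58% over all promoters. These counts describe letters in a window and no binding, and all genes rather than genes of a like level were the comparison. All genes were not split by side of 0, and a link between motif and fold change was not tested.

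The targeted gene was lower in DDX17_KO. DDX17 measured 22.4, 7.64 and 19.1 FPKM in DDX17_KO, against 45.7, 41.4 and 43.9 FPKM in control. Its groups did not overlap, with an exact permutation p of 0.1, two-sided, the smallest that 3 against 3 libraries allow. On the log2 scale the fold change was -1.48 ± 0.36 (SE, limma adjusted p = 0.282), and without DDX17_KO replicate 2 it was -1.04 (limma adjusted p = 0.0334). Steps between low values put the depth at 5340000 to 10600000 fragments in the DDX17_KO libraries and 12340000 to 14590000 in the controls, with DDX17_KO replicate 2 the shallowest. DDX17_KO replicate 2 and control replicate 2, here called the libraries numbered 2, deviated together from their groups, with a correlation of 0.546 across genes. Of 16 hepatocyte markers, ALB and AFP among them, 0 reached a mean of 0.5 FPKM, and their sum was 0.0853 to 0.16 FPKM in DDX17_KO and 0.974 to 1.29 FPKM in control. The epithelial keratins KRT8 and KRT18 were abundant in both groups. They had 121 ± 42.3 and 188 ± 44.4 FPKM in DDX17_KO and 103 ± 7.89 and 207 ± 22.9 FPKM in control (SD, n = 3 each). Of 5 epithelial markers these were the 2 tested, and KRT19, EPCAM and CDH1 each had a mean under 0.5 FPKM. Red cell transcripts, 7 markers led by HBB, summed to 0.0211 to 0.673 FPKM in DDX17_KO and 54 to 69.6 FPKM in control, with HBB and HBA2 at 0 in every DDX17_KO library. Fibroblast markers, 6 genes with 4 tested, summed to 47.5 to 88.8 FPKM in DDX17_KO and 38.2 to 46.3 FPKM in control; COL3A1 carried that sum, while all DDX17_KO libraries lay below all controls in COL1A1 and PDGFRB. The sums were 2.26 to 3.62 FPKM in DDX17_KO and 1.39 to 1.91 FPKM in control for 6 leukocyte markers, 2 of them at 0 in all libraries. The part of these transcripts in the results below was not tested.

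No member passed the test between DDX17_KO and control. By limma on log2(FPKM + 1), with Benjamini-Hochberg adjustment over 15620 genes, 0 of 39 members were higher and 0 were lower at an adjusted p of 0.05, and the lowest adjusted p of a member was 0.339. Over all genes, 0 were higher, 0%, and 6 were lower, 0.0384%. At an unadjusted p under 0.05 there was 1 member, PRPF8, whose listed level is low and uncertain, against 13.5% of all genes. The members nonetheless leaned to 1 side: 31 of 39 had a fold change below 0, against 52.5% of all genes tested. Their median log2 fold change was -0.19, against -0.03 over all genes. The medians of the members by library had an SD of 0.21 on the log2 scale. All members share the same 6 libraries, so they are not separate observations, and the lean itself was not tested. With the numbers as a block in the model, 0 members passed at the adjusted threshold as well, against 0% of all genes higher and 0.0256% lower, and 14 had an unadjusted p under 0.05; of these 7 were higher and 7 lower, against 28.6% of all genes.

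**Figure D1:**
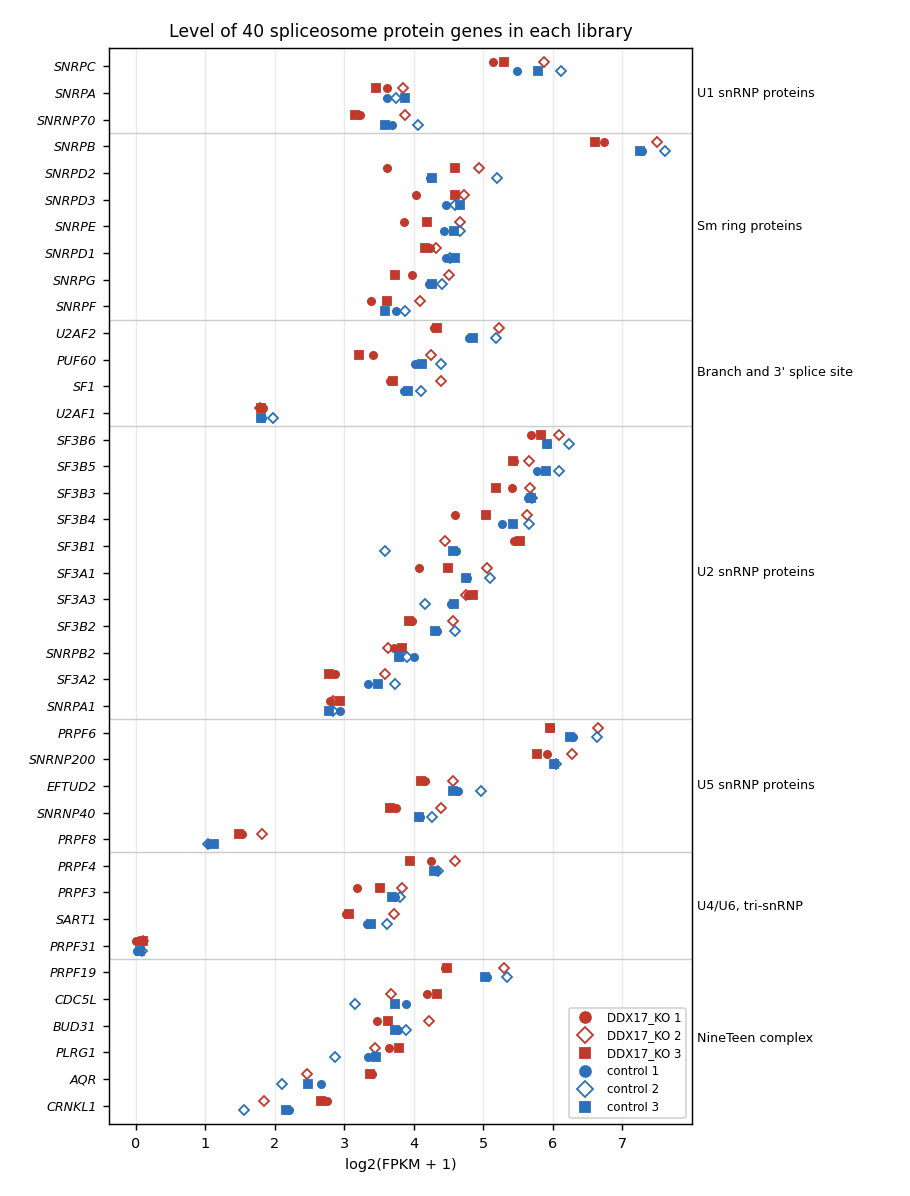
Level of each of the 40 genes in each library as log2(FPKM + 1), grouped by the particle the protein belongs to and ordered by mean within it; DDX17_KO libraries are red and drawn above the blue controls, and open diamonds are the libraries numbered 2. SNRPB lies farthest right, with 96.6 to 181 FPKM in DDX17_KO and 152 to 195 FPKM in control, and PRPF31 lies at or near 0 in every library.

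The members were well expressed as a group. Their mean levels had a median of 18.1 FPKM, above 88.9% of all tested genes, and 31 of the 40 had a mean of at least 10 FPKM. Together they made up 0.313%, 0.319% and 0.325% of all FPKM in DDX17_KO, against 0.357%, 0.374% and 0.337% in control. Each DDX17_KO share was thus below each control share. All FPKM, by which the shares are divided, summed to 264300, 369200 and 262800 in DDX17_KO and 283100, 318400 and 306700 in control. The largest of these sums was that of DDX17_KO replicate 2. The summed level itself overlapped, at 826, 1178 and 855 FPKM in DDX17_KO and 1011, 1192 and 1033 FPKM in control.

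Among proteins that mark the splice sites first, all 7 fold changes were below 0 and none passed. Some depended on the setting: with GC content and transcript length removed SNRPA was at 0.13, SF1 at 0.20 and SNRNP70 at -0.06, and U2AF1 was at 0.0067 without the libraries numbered 2. SNRPC, SNRNP70 and SNRPA are the U1 proteins, of which SNRNP70 and SNRPA bind the U1 snRNA directly. SNRPC had 43.4 ± 12.4 FPKM in DDX17_KO and 55.4 ± 12.2 FPKM in control, SNRNP70 9.96 ± 3.16 FPKM in DDX17_KO and 12.9 ± 2.54 FPKM in control, and SNRPA 11.5 ± 1.69 FPKM in DDX17_KO and 12.4 ± 1.19 FPKM in control (SD, n = 3 each). The log2 fold changes of SNRPC and SNRNP70 were both -0.36, with 95% intervals from -0.97 to 0.25 and from -0.95 to 0.22.

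PUF60, a U2AF-like protein that binds polypyrimidine tracts, had the lowest fold change of all members. PUF60 (ENSG00000179950, chromosome 8 of hg38, 143816344 to 143829859) reached 9.62, 18 and 8.31 FPKM in DDX17_KO, against 15.3, 19.9 and 16.3 FPKM in control. Replicates 1 and 3 of DDX17_KO lay below every control, while replicate 2 lay inside the control range. The log2 fold change was -0.55 ± 0.29 (SE), its 95% interval ran from -1.22 to 0.12, and limma gave an adjusted p of 0.401. Without the libraries numbered 2 it was -0.75, with a limma adjusted p of 0.0401, and without single libraries it ran from -0.86 to -0.35.

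U2AF2, the U2AF subunit that contacts the polypyrimidine tract, was also low in DDX17_KO replicates 1 and 3, with 18.5, 36.3 and 19.3 FPKM in DDX17_KO and 26.7, 35.3 and 27.8 FPKM in control. DDX17_KO replicate 2 was above every control. The log2 fold change of U2AF2, -0.32, became -0.51 without the libraries numbered 2. SF1, the branch-site binding protein, averaged 14.5 ± 4.72 FPKM in DDX17_KO and 14.6 ± 1.35 FPKM in control (SD, n = 3 each), a log2 fold change of -0.05 with a 95% interval from -0.61 to 0.51.

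U2AF1, the partner that reads the AG of the 3′ splice site, was low and even, at 2.56, 2.45 and 2.48 FPKM in DDX17_KO and 2.52, 2.92 and 2.5 FPKM in control. The table holds a near-identical copy, U2AF1L5, at 4.02, 3.35 and 3.56 FPKM in DDX17_KO and 3.98, 3.5 and 3.77 FPKM in control; this copy was picked out after its values were seen. The summed level of the pair was 6.58, 5.8 and 6.04 FPKM in DDX17_KO, against 6.5, 6.42 and 6.27 FPKM in control. How the fragments were divided between the copies is uncertain, and neither the gene nor the sum separated the groups.

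The 7 Sm proteins form the ring around each snRNA, and in a ring each is present once. Their genes nevertheless covered a wide range of levels, with means from 12.2 to 128 FPKM in DDX17_KO and 12.4 to 167 FPKM in control. All 7 had fold changes below 0, with a median of -0.22, and 0 passed. SNRPB (ENSG00000125835, chromosome 20, 2461634 to 2470853), which encodes SmB and SmB′, stood at 105, 181 and 96.6 FPKM in DDX17_KO, against 155, 195 and 152 FPKM in control. DDX17_KO replicate 2 lay among the controls, and the other DDX17_KO libraries lay below them. The log2 fold change of SNRPB was -0.44 ± 0.27 (SE, limma adjusted p = 0.451).

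SNRPD1 (ENSG00000167088, chromosome 18, 21612267 to 21633524) was the only Sm gene whose groups did not overlap. It had 17.9, 19 and 16.9 FPKM in DDX17_KO, against 21, 22 and 23.2 FPKM in control. Its log2 fold change was -0.28 ± 0.17 (SE, limma adjusted p = 0.43). Every DDX17_KO library lay below every control in 3 members, SNRPD1, SF3B5 and EFTUD2, against 12.6% of all genes tested, and above every control in PRPF8 and SF3A3, against 8.09%. Those shares of the 39 members are close to or under the background.

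SNRPD2 was the most scattered Sm gene. It stood at 11.2, 29.7 and 23.1 FPKM in DDX17_KO and 17.8, 35.7 and 18.3 FPKM in control, so the highest library of each group was the one numbered 2. Its log2 fold change of -0.19 had the widest interval of all members, from -1.12 to 0.75. SNRPD3 averaged 21.2 ± 5.28 FPKM in DDX17_KO and 22.9 ± 1.68 FPKM in control, and SNRPF 12.2 ± 3.39 FPKM in DDX17_KO and 12.4 ± 1.33 FPKM in control (SD, n = 3 each).

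SNRPE and SNRPG have processed copies elsewhere in the genome, and some of those rows held more than the gene. SNRPE had 13.6, 24.4 and 17.3 FPKM in DDX17_KO and 20.6, 24.5 and 22.8 FPKM in control. SNRPEP4, a pseudogene of SNRPE, had 37.1, 67 and 36.2 FPKM in DDX17_KO and 43.3, 60.3 and 48.5 FPKM in control, above the parent gene in every library. Summed with SNRPEP4 and SNRPEP2, the SNRPE total was 52.4, 96.1 and 58.8 FPKM in DDX17_KO and 68.6, 87.6 and 73.8 FPKM in control. Without the libraries numbered 2 its mean was 55.6 FPKM in DDX17_KO and 71.2 FPKM in control, so lower in DDX17_KO, as for the gene alone. SNRPG had 14.7, 21.8 and 12.3 FPKM in DDX17_KO, against 17.6, 20.2 and 18.1 FPKM in control, while its pseudogene SNRPGP10 had 13.4, 42.4 and 14.6 FPKM in DDX17_KO and 10.4, 13.7 and 8.55 FPKM in control. Summed with SNRPGP10, SNRPGP15 and SNRPGP2, the SNRPG total was 37.3, 87.6 and 35.1 FPKM in DDX17_KO and 32, 41.4 and 35.3 FPKM in control. Much of the difference in total came from DDX17_KO replicate 2. Without the libraries numbered 2 the mean total was 36.2 FPKM in DDX17_KO and 33.7 FPKM in control, so still higher in DDX17_KO. The remaining libraries overlapped between the groups. The levels of SNRPE and SNRPG are therefore uncertain to the extent that fragments of gene and copy were exchanged. SNRPN, the tissue-restricted relative of SNRPB, averaged 10.2 ± 4.4 FPKM in DDX17_KO and 9.7 ± 1.41 FPKM in control (SD, n = 3 each).

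The U2 particle held members on both sides. SF3B1, the large SF3b scaffold that clamps the branch-site helix and is recurrently mutated in blood cancers, had the highest fold change of all members. SF3B1 (ENSG00000115524, chromosome 2, 197389784 to 197435091) reached 42.7, 20.8 and 45.2 FPKM in DDX17_KO, against 23.4, 11 and 22.6 FPKM in control. In each group replicate 2 was the low library, and DDX17_KO replicate 2 lay inside the control range. The log2 fold change was 0.89 ± 0.38 (SE), its 95% interval ran from -0.00 to 1.79, and limma gave an adjusted p of 0.369. With the block it had a limma adjusted p of 0.0654, the lowest of any member there, and without the libraries numbered 2 the fold change was 0.91 with a limma adjusted p of 0.0349. Over single omissions it ran from 0.56, without control replicate 2, to 1.24, without DDX17_KO replicate 2, and was called in none of them.

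The other SF3b genes lay below 0, unlike SF3B1. SF3B5 (ENSG00000169976, chromosome 6, 144094881 to 144095573), a small SF3b subunit, had 42.4, 49.6 and 41.8 FPKM in DDX17_KO, against 53.6, 67.3 and 58.9 FPKM in control. Its groups did not overlap, with a log2 fold change of -0.42 ± 0.19 (SE, limma adjusted p = 0.372). SF3B4, SF3B2, SF3B3 and SF3B6 had log2 fold changes of -0.37, -0.26, -0.25 and -0.15. Their means in DDX17_KO ran from 17.1 ± 4.68 FPKM for SF3B2 to 58 ± 8.41 FPKM for SF3B6, and in control from 20.3 ± 2.39 to 64.2 ± 8.37 FPKM for the same genes (SD, n = 3 each). The difference between SF3B1 and its partners was not tested.

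The SF3a genes, which encode the trimer that joins U2 with SF3b, were split too. SF3A3 (ENSG00000183431, chromosome 1, 37956975 to 37990921) had 26.4, 25.9 and 27.9 FPKM in DDX17_KO, against 22.1, 16.9 and 23 FPKM in control. Every DDX17_KO library was above every control, by a log2 fold change of 0.37 ± 0.19 (SE, limma adjusted p = 0.396). SF3A2 and SF3A1 lay on the other side, with log2 fold changes of -0.44 and -0.33. SF3A2 averaged 7.74 ± 2.84 FPKM in DDX17_KO and 10.5 ± 1.58 FPKM in control, and SF3A1 23.2 ± 8.25 FPKM in DDX17_KO and 28.4 ± 4.2 FPKM in control (SD, n = 3 each). SNRPA1 and SNRPB2, the proteins on the U2 snRNA itself, had log2 fold changes of 0.01 and -0.17. With GC content and transcript length removed they were at -0.12 and -0.41, and neither passed.

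**Figure D2:**
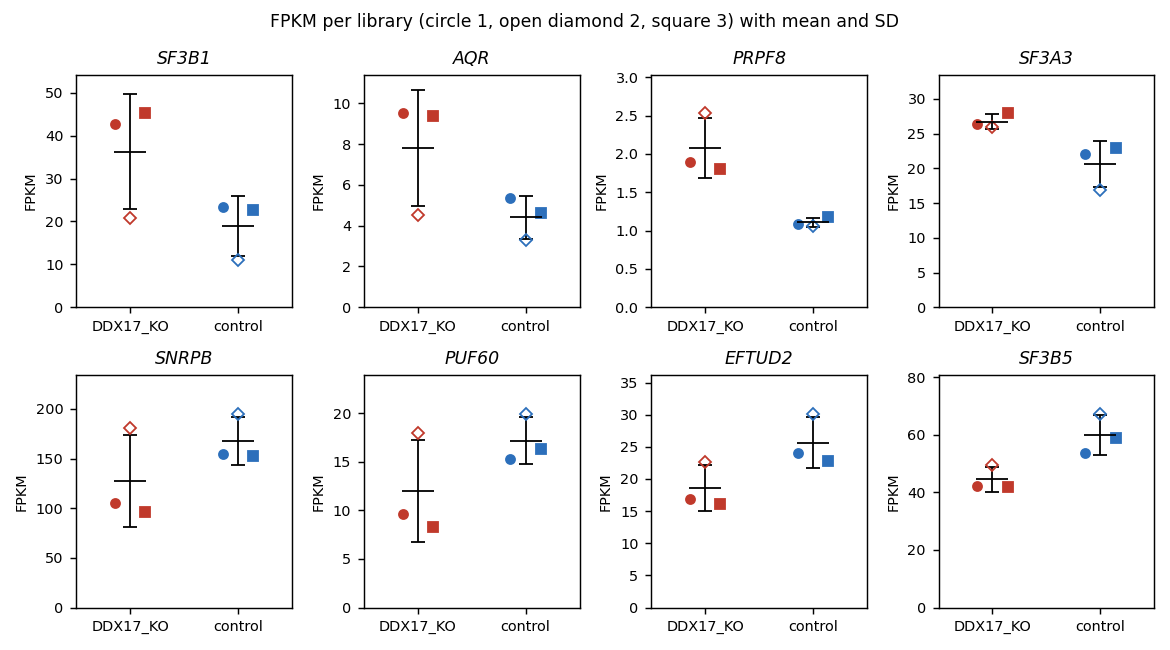
FPKM in each library for 8 members, with DDX17_KO left of control, each point 1 library (circle, open diamond and square for replicates 1, 2 and 3) and bars the mean and SD of 3 libraries. In SF3B1 and AQR the open diamonds are the lowest point of each group, in SNRPB, PUF60 and EFTUD2 the highest, and in PRPF8 every DDX17_KO point lies above every control point.

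PRPF8, the large U5 protein at the catalytic centre, was listed at a level far from that of its partners. Dividing cells cannot do without this gene, so its low listing makes the estimate, and the difference drawn from it, uncertain. PRPF8 (ENSG00000174231, chromosome 17, 1650629 to 1684882) had 1.9, 2.53 and 1.8 FPKM in DDX17_KO, against 1.08, 1.06 and 1.18 FPKM in control. The lowest DDX17_KO library was above the highest control. Its log2 fold change on the log2(FPKM + 1) scale was 0.54 ± 0.17 (SE), with a 95% interval from 0.15 to 0.93. The unadjusted limma p was 0.0129 and the limma adjusted p 0.339. Without single libraries the fold change ran from 0.44 to 0.60, and with a pseudocount of 0.1 it was 0.84. Without both libraries numbered 2 it was 0.42.

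The remaining U5 genes were more abundant per length than PRPF8. The helicase gene SNRNP200 averaged 63.2 ± 12 FPKM in DDX17_KO and 64.3 ± 0.661 FPKM in control, and PRPF6, which bridges U5 with U4/U6, 73.9 ± 22.2 FPKM in DDX17_KO and 83.8 ± 12.9 FPKM in control (SD, n = 3 each). EFTUD2 (ENSG00000108883, chromosome 17, 44849943 to 44899662), the U5 GTPase, had 16.9, 22.7 and 16.2 FPKM in DDX17_KO, against 24, 30.2 and 22.7 FPKM in control. The highest DDX17_KO library and the lowest control differed by a small margin. Its log2 fold change was -0.45 ± 0.21 (SE), its 95% interval ran from -0.94 to 0.04, and limma gave an adjusted p of 0.377. SNRNP40, a WD-repeat U5 protein, averaged 14.7 ± 4.59 FPKM in DDX17_KO and 16.7 ± 1.33 FPKM in control.

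In the tri-snRNP, PRPF31 was listed at or near 0. PRPF31 (ENSG00000105618, chromosome 19, 54115410 to 54131719), which binds the U4 snRNA and is essential in dividing cells, had 0, 0.0722 and 0.0706 FPKM in DDX17_KO and 0.0157, 0.0694 and 0.0398 FPKM in control. All these values are under 0.248 FPKM, the level that 3 fragments on its longest annotated transcript give in the shallowest library. Other genes that dividing cells use were also listed at or near 0, picked out after their values were seen. The neighbour TFPT and the ring protein gene LSM2 were at 0 in all 6 libraries, and the helicase gene DHX16 had 0, 0.0411 and 0 FPKM in DDX17_KO and 0, 0.0316 and 0 FPKM in control. These entries say only how the genes are listed.

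PRPF4, PRPF3 and SART1, the other U4/U6 and tri-snRNP members, overlapped between the groups. PRPF4 averaged 18.5 ± 4.46 FPKM in DDX17_KO and 19 ± 0.415 FPKM in control, PRPF3 10.6 ± 2.62 FPKM in DDX17_KO and 12.4 ± 0.517 FPKM in control, and SART1, which is needed to recruit the tri-snRNP, 8.89 ± 2.76 FPKM in DDX17_KO and 9.9 ± 1.15 FPKM in control (SD, n = 3 each). Their log2 fold changes were -0.06, -0.23 and -0.17.

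The class of the PRPF19 complex and its associated proteins had the most members above 0, 4 of 6. Its median log2 fold change was 0.42, and none of the 6 passed. With GC content and transcript length removed the median was 0.17. AQR (ENSG00000021776, chromosome 15, 34851782 to 34969839), an intron-binding helicase of the active spliceosome, stood at 9.51, 4.51 and 9.36 FPKM in DDX17_KO, against 5.35, 3.29 and 4.6 FPKM in control. As in SF3B1, the library numbered 2 was the low one in each group, and DDX17_KO replicate 2 lay inside the control range. The log2 fold change of AQR was 0.66 ± 0.30 (SE, limma adjusted p = 0.372). Without the libraries numbered 2 it was 0.81 with a limma adjusted p of 0.039.

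CRNKL1, a TPR-repeat scaffold of the complex, had 5.75, 2.58 and 5.34 FPKM in DDX17_KO and 3.63, 1.93 and 3.49 FPKM in control. CDC5L, a MYB-related core subunit, averaged 16.1 ± 3.93 FPKM in DDX17_KO and 11.3 ± 3.06 FPKM in control, and PLRG1, its WD-repeat partner, 11.4 ± 1.42 FPKM in DDX17_KO and 8.47 ± 1.95 FPKM in control (SD, n = 3 each). The log2 fold changes of CRNKL1, CDC5L and PLRG1 were 0.44, 0.48 and 0.41, and with GC content and transcript length removed they were 0.18, 0.17 and 0.17. In AQR, CRNKL1, CDC5L and PLRG1 alike, DDX17_KO replicates 1 and 3 lay above every control, as in 28.2% of all genes. Replicate 2 of DDX17_KO lay inside the control range in each.

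PRPF19, the ubiquitin ligase after which the complex is named, lay on the other side of 0. It had 20.8, 38.3 and 21.3 FPKM in DDX17_KO, against 32.1, 39.5 and 31.6 FPKM in control, a log2 fold change of -0.40 with a 95% interval from -1.02 to 0.23. BUD31, a small associated protein, averaged 13 ± 4.02 FPKM in DDX17_KO and 12.9 ± 0.79 FPKM in control (SD, n = 3 each).

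**Figure D3:**
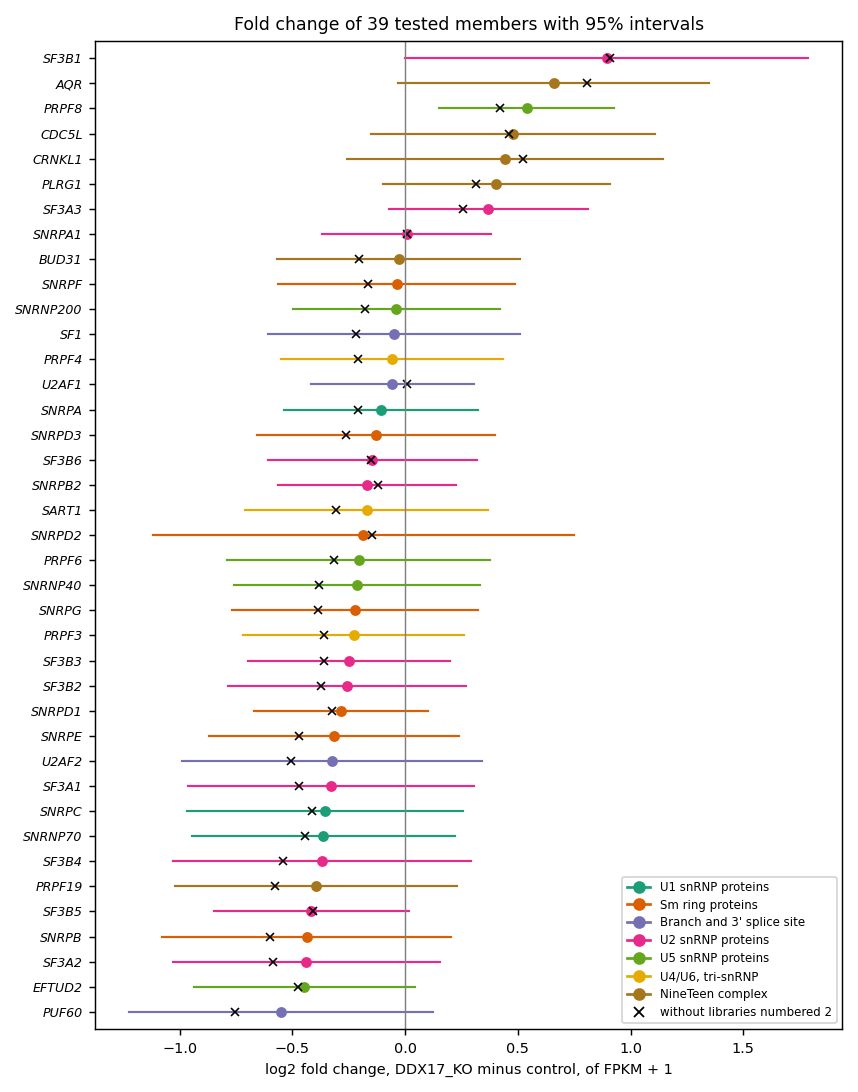
Log2 fold change of DDX17_KO over control for the 39 tested members, on the log2(FPKM + 1) scale, with limma's 95% intervals from 6 libraries and crosses for the value without the libraries numbered 2; colours give the particle. The interval of PRPF8, from 0.15 to 0.93, is the only one that lies wholly on 1 side of 0, and the fold changes run from -0.55 for PUF60 to 0.89 for SF3B1.

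The layout of PUF60, with the libraries numbered 2 highest, recurred across the members. That of SF3B1 and AQR, with these libraries lowest, was rarer in the members than over all genes. DDX17_KO replicate 2 was the highest of its group in 30 of 39 members and the lowest in 8, against 46.7% and 39.2% of all genes tested. Control replicate 2 was the highest of its group in 27 and the lowest in 7, against 44% and 37.2% of all genes. Both were highest together in 26 members and lowest together in 6, against 31.7% and 27.3%. SNRPD2 deviated most upwards, with the libraries numbered 2 higher by 0.89 on the log2 scale than the other 4, and SF3B1 most downwards, at -1.02.

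Without DDX17_KO replicate 2, 31 of 39 members lay below 0, as many as with it, and their median was farther from 0. Both remaining DDX17_KO libraries lay below every control in 25 of 39 members, against 32.6% of all genes, and above every control in 7, against 28.2%. The median log2 fold change of the members was -0.37, against -0.05 over all genes. Still 0 of 39 members passed as higher and 0 as lower without DDX17_KO replicate 2, against 1.95% and 1.72% of all genes, with a lowest limma adjusted p of 0.0513, and 23 had an unadjusted p under 0.05, against 35.8% of all genes. Without DDX17_KO replicate 1, by contrast, the median of the members was -0.09.

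Members were called in 1 setting, which left out both libraries numbered 2 and compared 2 libraries with 2. There SF3B1 and AQR rose, against 5.51% of all genes called higher, and PUF60, SNRPB, PRPF19 and U2AF2 fell, against 3.3% called lower. An unadjusted p under 0.05 was found for 26 of 39 members, against 34.1% of all genes. The log2 fold changes of SNRPB, PRPF19 and U2AF2 in that setting were -0.60, -0.58 and -0.51, with limma adjusted p-values of 0.0437, 0.0396 and 0.0464. The direction of each of these 6 genes was the same with all 6 libraries, from which these 4 were taken.

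Base composition moved with both the fold changes and the libraries numbered 2. Across the 39 members, which share the same 6 libraries, the Spearman correlation between the mean GC content of a gene's annotated transcripts and its log2 fold change was -0.57, and over all 15564 genes with a GC content it was -0.51. Between GC content and the deviation of the libraries numbered 2, the Spearman correlation was 0.71 in the members. In bands set after the values were seen, all 12 members with a GC content of at least 55% had fold changes below 0, with a median of -0.33, and all genes in that band had a median of -0.26. Between 42% and 55%, 14 of 17 members lay below 0, with a median of -0.15 against 0.02 for all genes in the band.

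Under 42% the 10 members divided evenly, with 5 above 0 and 5 below 0. Those above 0 were SF3B1, AQR, CDC5L, CRNKL1 and PLRG1, whose longest annotated transcripts run from 3351 to 9694 bases. Those below were SNRPB2 and the Sm genes SNRPD1, SNRPE, SNRPF and SNRPG, with longest transcripts from 967 to 4909 bases. All genes in this band had a median of 0.29. In the Sm genes of low GC content the libraries numbered 2 were not lower than the others: the log2 difference was 0.40, 0.40, 0.42 and 0.059 in SNRPE, SNRPF, SNRPG and SNRPD1.

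With GC content and transcript length removed from each library, the median of the members was -0.12, against 0.00 over all genes, and 26 of 39 lay below 0. The length used was the median over a gene's annotated transcripts, which for SF3B1 was 625.5 bases against 6526 for its longest. No member passed, and the lowest limma adjusted p was 0.179, in PRPF8 at a log2 fold change of 0.63. SF3B1 was at 0.64 and AQR at 0.41 after this step, EFTUD2 at -0.41, SNRPE at -0.56 and SNRPD1 at -0.52, while U2AF2 was at -0.01 PUF60 at -0.23 and SNRPB at -0.16. The fold change was smaller by more than 1.5 times on the same side in 17 members. Of these, 13 lay below 0, such as PUF60, SNRPB, U2AF2, SNRNP70, SF3A2, SF3B5 and PRPF19, and 4 above 0, which were AQR, CDC5L, PLRG1 and CRNKL1. In 8 members, all below 0, it was larger by more than 1.5 times, SNRPE, SNRPG, SNRPF and SNRPD1 among them. In 7 it turned side, and in 7, including SF3B1, PRPF8 and EFTUD2, it moved by less.

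**Figure D4:**
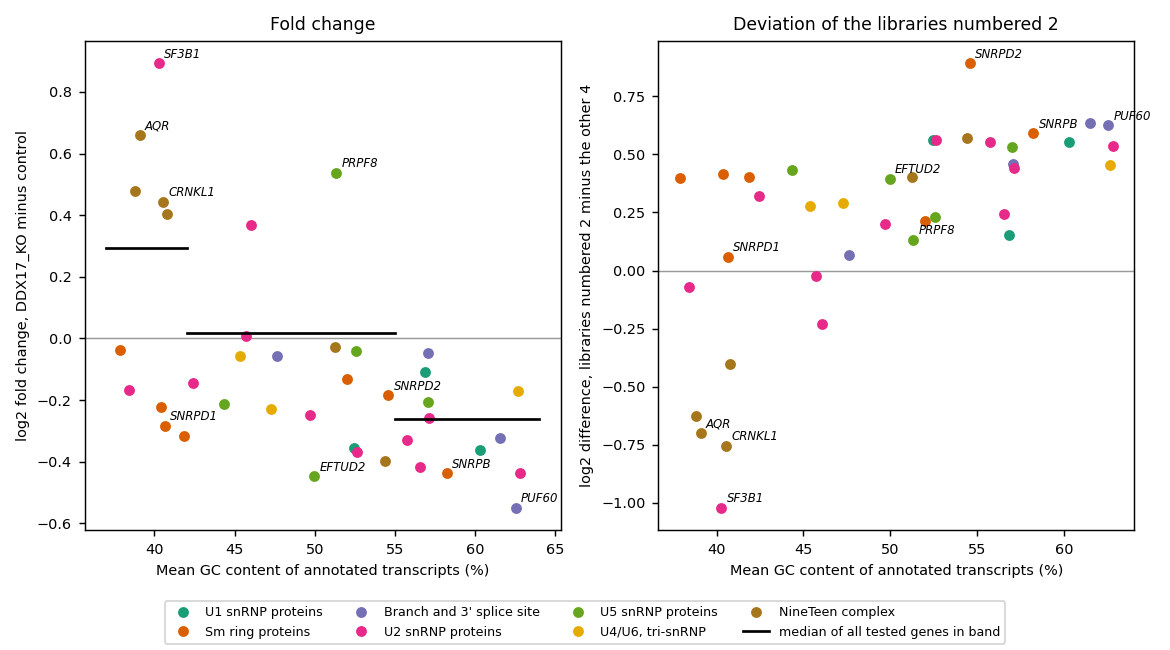
Mean GC content of each tested member's annotated transcripts (x axis, percent) against its log2 fold change of DDX17_KO over control (left) and against the log2 difference between the libraries numbered 2 and the other 4 (right); black lines give the median fold change of all tested genes with a GC content under 42%, from 42% to 55%, and of at least 55%. Members of high GC content all lie below 0 on the left, and SF3B1, AQR and CRNKL1 lie at low GC content with values above 0 on the left and below 0 on the right.

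The rest of the splicing machinery was read from 5 lists of 84 genes, of which 80 were tested. By limma over all genes 0 were higher and 0 lower in DDX17_KO, and 4 had an unadjusted p under 0.05, against 13.5% of all genes. The fold change was below 0 in 38 of the 80, and its median was 0.01 on the log2 scale. The difference in lean between these genes and the members was not tested. Without the libraries numbered 2, 6 of them were called higher, LUC7L3, PRPF18, LUC7L2, CWC22 and DDX46 among them, and 1 lower (SNRNP25), against 5.51% and 3.3% of all genes.

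Among other U1, U2 and tri-snRNP factors, 0 of 22 tested genes passed, 12 lay above 0, and the median was 0.06. LUC7L3, a U1-associated protein, had 13.7, 4.31 and 11.6 FPKM in DDX17_KO and 5.15, 2.05 and 4.11 FPKM in control, a log2 fold change of 1.12. Replicate 2 was thus the low library of each group, as in SF3B1.

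Of other PRPF19 complex and step factors, 0 of 26 tested genes passed, with 15 above 0 and a median of 0.04. GPKOW, a G-patch protein of the active spliceosome, had 29.5 ± 0.912 FPKM in DDX17_KO and 44.8 ± 7.73 FPKM in control, and PRPF18, a second-step factor, 8.97 ± 2.13 FPKM in DDX17_KO and 5.39 ± 0.624 FPKM in control (SD, n = 3 each). Every DDX17_KO library lay above every control in 3 of the 26, PRPF18 among them, against 8.09% of all genes. Every one lay below in 3, GPKOW among them, against 12.6%. Both genes were named for their low p. Among the LSm proteins, which ring the U6 snRNA, 0 of 6 passed and 3 lay above 0; LSM4 had 16 ± 4.33 FPKM in DDX17_KO and 21 ± 4.89 FPKM in control, and LSM8 3.8 ± 0.722 FPKM in DDX17_KO and 3.11 ± 0.139 FPKM in control.

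For the minor spliceosome, which removes the rare U12-type introns, 0 of 9 passed and 4 lay above 0. RNPC3, its U11/U12 65K protein, had 1.56 ± 0.567 FPKM in DDX17_KO and 0.747 ± 0.182 FPKM in control, and ZRSR2, the U2AF1-related 3′ splice site factor, 3.21 ± 0.438 FPKM in DDX17_KO and 2.14 ± 0.565 FPKM in control (SD, n = 3 each). For snRNP assembly and import, 0 of 17 passed and 8 lay above 0. The SMN complex genes GEMIN7 and GEMIN2 had 3.62 ± 0.679 and 2.86 ± 0.34 FPKM in DDX17_KO and 4.8 ± 0.325 and 3.51 ± 0.409 FPKM in control.

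The snRNA genes themselves were scattered. RNU1-4, a U1 gene, had 1147, 2052 and 622 FPKM in DDX17_KO, against 408, 618 and 747 FPKM in control. RNU1-2, another U1 gene, had 87.8, 137 and 55 FPKM in DDX17_KO and 30.6, 45.6 and 55.3 FPKM in control. RNU2-2P had 60.6, 127 and 52.3 FPKM in DDX17_KO and 36.9, 69.7 and 46.4 FPKM in control, and RNU4-2 11.3, 30.5 and 13 FPKM in DDX17_KO and 13.2, 11.2 and 10.2 FPKM in control. All 4 were highest in DDX17_KO replicate 2, and their groups overlapped. Of 20 tested snRNA genes 17 lay above 0 and 3 below 0, against 52.5% of all genes below 0. By limma 0 passed and 4 had an unadjusted p under 0.05, against 13.5% of all genes. Every DDX17_KO library was above every control in 4, against 8.09% of all genes, and below every control in 0, against 12.6%. These RNAs are short and occur in many copies, so their levels per length are uncertain.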

How the data were processed

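For 6 libraries of MHCC97H total RNA the authors deposited FPKM by gene, in 1 table. Per the submitters' processing notes, HISAT2, StringTie, edgeR, CASAVA 1.8 and hg38 were used, in roles not stated there. The sources used here name neither annotation release nor strand setting, so fragments of overlapping genes cannot be told apart by strand. Libraries were grouped, and numbered, by their titles. Depth came from the steps between low FPKM values of genes with 1 transcript, which lay within 0.05 of whole fragments in 99.57% to 99.73% of values up to 20 fragments. GENCODE release 29 gave transcript lengths and GC content for 99.64% of tested genes and the same locus for all 40 members.

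Genes with a mean of 0.5 FPKM or more, 15620 in all, entered a two-sided limma fit (limma 3.58.1, R 4.3.3) of log2(FPKM + 1) with the trend option, and p-values were adjusted by Benjamini-Hochberg over all of them, with a threshold of 0.05. Differences of low genes come out too small on this scale. The method was tested on simulated data, with known changes larger than any of the members and no deviation shared between libraries. That test does not cover changes of the size seen in the members. Confidence intervals are at 95%, and the 3-fragment floor covers counting error only.

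Deviations from the group means correlated at 0.3, 0.546 and 0.214 for the same-numbered libraries 1, 2 and 3, all above 0.1, so the numbers were treated as pairs in the alternative that has the replicate as a block. The labels do not state such pairs. Libraries of unlike number also correlated, DDX17_KO replicate 3 with control replicate 1 at 0.329 and DDX17_KO replicate 1 with control replicate 3 at 0.19, so the data single out only the libraries numbered 2.

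Members, gene lists and rules were chosen with earlier results of these data known. Values in every library are given for DDX17, for members without overlap between groups, for the highest and lowest mean, for the 4 largest fold changes and the 4 largest deviations of the libraries numbered 2. Other members are given by means, except SNRPE, SNRPG, U2AF1, U2AF2 and PRPF19, whose libraries were added after their values were seen. From each pathway list up to 2 genes with the lowest p are named, of which 1 is not reported here, and from the snRNA and copy lists up to 4 by mean. Values were joined with Python 3.11.15 and pandas 2.3.3. Alternatives were the block, a pseudocount of 0.1, no filter, a minimum mean of 2 FPKM, median-of-ratios scaling, removal of GC content and length by splines with 4 degrees of freedom each, that with the block, no trend, each library left out, and both libraries numbered 2 left out.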

Additional observations from a re-analysis of the deposited data

How the results depend on the processing

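With all 6 libraries 0 members were called in any setting; without both libraries numbered 2 there were 2 higher and 4 lower, and pathway genes came to 6 higher and 1 lower. Without single libraries, members called stayed at 0, pathway genes ran from 0 to 2 higher and 0 to 1 lower, and all genes from 0 to 304 higher and 3 to 268 lower. All genes called were 860 higher and 516 lower without both libraries numbered 2, 1 higher with the GC content and length correction, and 3 lower with no filter. With the replicate block 0 genes were higher and 4 lower, the median of the members stayed at -0.19, and the block changed no call of a member. The median ran from -0.37 to -0.09 without single libraries. DDX17 had a log2 fold change of -1.48, which passed at -1.04 without DDX17_KO replicate 2 and at -1.08 without both libraries numbered 2, and ran from -1.76 to -1.04 over single omissions.

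The direction of 27 of 39 members was the same in every setting that tested them; PRPF8 was not tested at a minimum mean of 2 FPKM. With the GC content and length correction, with or without the replicate block, SNRPA turned to 0.13, SF1 to 0.20, SNRPA1 to -0.12, SNRNP200 to 0.10, PRPF6 to 0.028, SART1 to 0.13 and BUD31 to 0.056. With median-of-ratios scaling SNRPF turned to 0.0067, SNRNP200 to 0.0079 and BUD31 to 0.016. U2AF1 was at 0.0067 without both libraries numbered 2. Over single omissions the fold change ran from -0.46 to 0.20 for SNRPD2, from -0.27 to 0.079 for SNRPD3, from -0.23 to 0.12 for SNRPF, from -0.29 to 0.081 for SF1, from -0.033 to 0.050 for SNRPA1, from -0.19 to 0.067 for SNRNP200, from -0.23 to 0.10 for PRPF4 and from -0.25 to 0.12 for BUD31. The cause was not tested. With 3 libraries a group and the shallowest at 5340000 fragments, intervals of single members spanned most fold changes seen here.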
